A study of Mus musculus with 5 samples.

Results

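Fibroblast growth factor (FGF) signalling and the genes that extracellular signal-regulated kinase (ERK) induces to restrain it were followed in mouse cortical cells made to express Ptf1a. The set was chosen by symbol, as 36 named ligands, receptors, docking proteins, feedback inhibitors and Ets factors, and all 36 were found among the 23234 gene rows of the table. At E12.5, CD1 mouse embryos received by cortical electroporation either a construct for Ptf1a, a basic helix-loop-helix factor, together with GFP or one for GFP alone, and GFP-positive cells were purified at E15.5. There were 3 Ptf1a samples and 2 GFP-only samples, each a pool of 3 to 6 brains and of 58000 to 106000 cells. Both groups therefore shared electroporation, GFP and cell sorting, and the promoter that drove the constructs is not given in the sources used here. The labels do not say that the samples came from separate litters, so the authors' test measures the spread between these pools only.

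FGFs bind receptor tyrosine kinases with heparan sulphate as a cofactor, and the docking protein Frs2 carries the signal to Ras, Raf, MEK and ERK. ERK then switches on Ets factors of the Etv group and a set of inhibitors, the Sproutys, Spreds, Il17rd and dual-specificity phosphatases, which damp the same cascade. In the embryonic cortex the pathway is known for area patterning by Fgf8 and its relatives and for maintaining radial glia, the cortical stem cells that carry Fgfr1, Fgfr2 and Fgfr3. The intracellular FGF homologous factors Fgf11 to Fgf14 share the FGF fold but are not secreted, do not work through these receptors in the classical way, and bind voltage-gated sodium channels.

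Levels are the authors' single group value per gene in FPKM, a length-scaled unit, with the control given first and Ptf1a second. A gene rose or fell where the authors' q, adjusted over all 11876 tested genes, was under 0.05. Values of single samples were not used here, so neither their spread nor their overlap can be given. The neuronal tubulin Tubb3 was listed at 0 in the control with the status HIDATA, so a 0 may stand for an estimate that failed. No member carried that status: those listed at 0 had the status NOTEST, and they are said only to be listed at 0. Ptf1a itself went from 0.210 to 38.9 FPKM. Pyramidal neuron markers were abundant in the sorted cells, with Neurod6 at 1717 and 1190 FPKM, as was the radial glia marker Fabp7 at 1652 and 3095 FPKM.

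Of the 36 members, 9 rose, 2 fell, 10 were tested and not called, and 15 had no test. Among all tested genes 18.7% rose and 19.1% fell. The risen members were the ligand Fgf15, the receptors Fgfr1, Fgfr2 and Fgfr3, the feedback genes Spry1, Spry2 and Dusp6, and the Ets factors Etv4 and Etv5. The fallen members were Fgf12 and Fgf13, both intracellular. Members with a test were the more abundant ones: each reached at least 0.708 FPKM in its higher group, while no untested member passed 0.528 FPKM. Fgfr2, Etv4 and Fgf11 passed 0.528 FPKM only with Ptf1a, so that they had a test may rest on their higher Ptf1a value. The median log2(FPKM + 0.1) difference, Ptf1a minus control, was 0.47 over the 21 tested members, beside -0.01 over all tested genes. It was 0.50 over the 36 members, 1 of them listed at 0 in both groups, beside 0.07 over all genes with a value above 0 in either group.

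**Figure D1:**
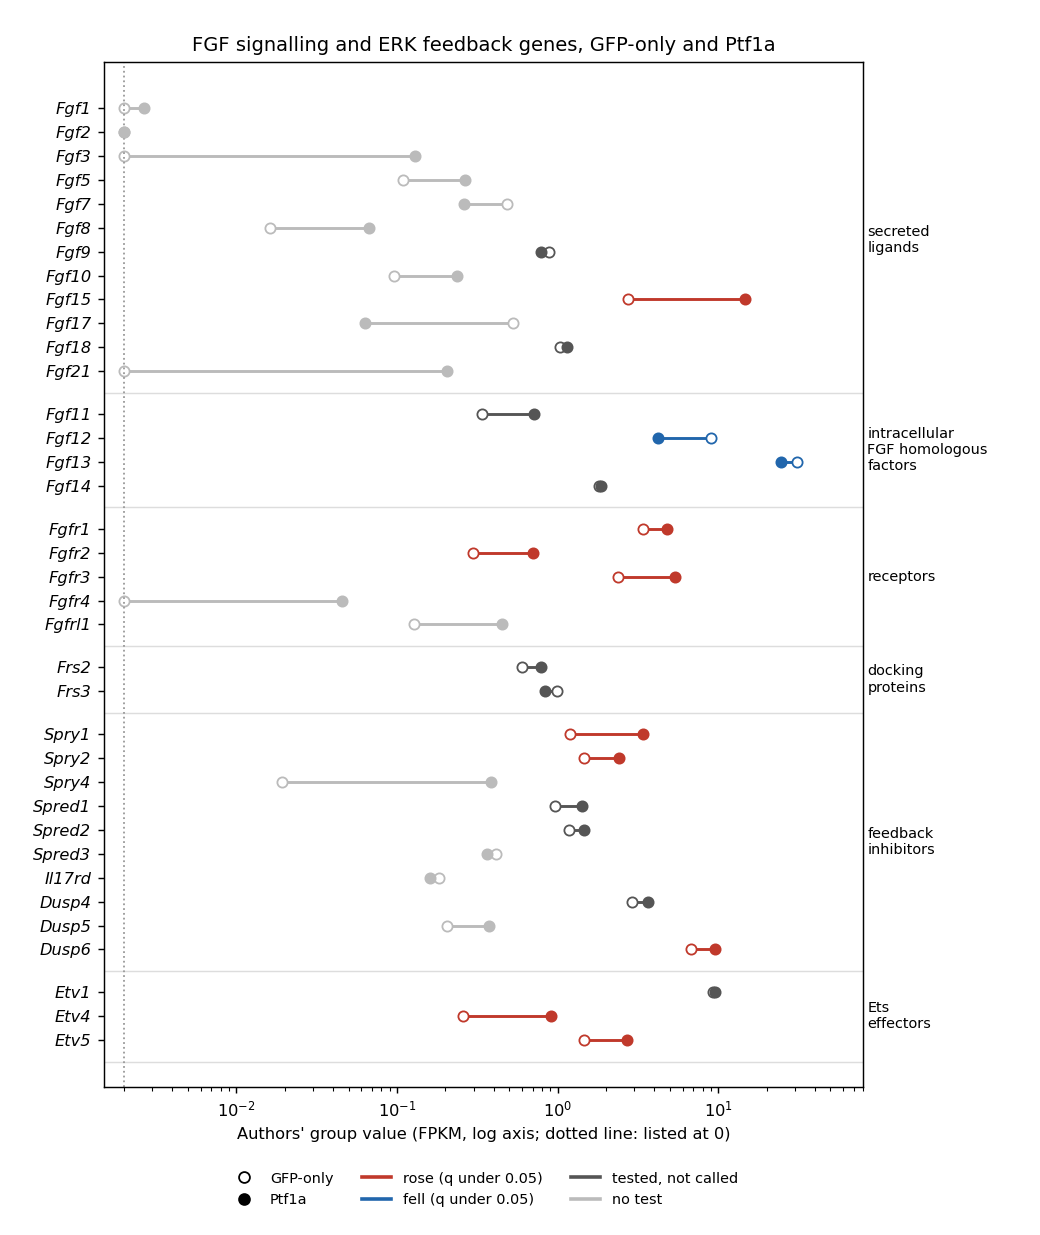
Authors' group value of each of the 36 members in FPKM on a log axis, GFP-only as open and Ptf1a as filled circles, grouped by role and coloured by the authors' call. Fgf15 moved furthest among called members, from 2.74 to 14.6 FPKM, and the fallen members were both intracellular FGF homologous factors.

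Markers of cell classes moved in the same comparison. Radial glia markers rose in 11 of 12 genes and none fell, with their summed level going from 1826 to 3490 FPKM. Basal progenitor markers rose in 5 of 6, with a sum of 83.5 and 135 FPKM. Postmitotic neuron markers fell in 11 of 13, with a sum of 4468 and 2668 FPKM when Tubb3 is left out. Fgfr1, Fgfr2 and Fgfr3 are receptors of radial glia, and the part that these shifts have in the FGF results was not tested. In such bulk samples fewer cells of a type and less RNA per cell cannot be told apart.

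Markers of other cell classes that the sort could hold ranged widely in level, with the highest sums for red blood cell and ventral interneuron genes. The 6 oligodendrocyte precursor markers had no test and reached at most 0.392 FPKM, with sums of 0.393 and 0.747 FPKM. Endothelial markers summed to 4.40 and 7.17 FPKM with 1 of 8 risen, and pericyte markers to 1.93 and 3.50 FPKM with 2 of 5 risen, 1 fallen and Anpep listed at 0 in both groups. Meningeal markers summed to 4.07 and 2.57 FPKM with 1 of 7 fallen, Foxc1 and Foxd1 being listed at 0 in the control, and microglial markers to 15.7 and 10.1 FPKM with 1 of 7 fallen. Of the 6 choroid plexus and hem markers 1 fell, Ttr, at 31.4 and 6.92 FPKM, while Folr1 was listed at 0 in the control. Red blood cell genes summed to 150.2 and 62.7 FPKM with 3 of 7 fallen. Ventral interneuron markers rose in 5 of 9 and summed to 48.4 and 94.4 FPKM, of which Sst was 41.3 and 78.6 FPKM.

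Among the 12 secreted ligands the only called change was that of Fgf15, a ligand of forebrain and midbrain progenitors that also acts as an intestinal hormone. Fgf15 (chromosome 7, 152082437 to 152086856, mm9) stood at 2.74 FPKM in the control and 14.6 FPKM with Ptf1a. It was the most abundant secreted ligand in both groups. The authors' deposited table gives it a log2 fold of 2.41 and q = 0.000329, the smallest q in that table, which 1803 genes shared. By log2(FPKM + 0.1) difference Fgf15 ranked 169 among the 11876 tested genes, counting from the largest rise. Fgf15 made up 46.5% of the summed ligand FPKM in the control and 82.2% with Ptf1a.

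Ligands of the Fgf8 group, which pattern the rostral cortex, were weak. Fgf18, known from cortical plate neurons, was not called, at 1.03 and 1.15 FPKM. Fgf17 was at 0.528 FPKM in the control and 0.0632 FPKM with Ptf1a and Fgf8 was at 0.0162 and 0.0671 FPKM. Neither of these had a test, so no direction is given for them.

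The remaining ligands were also low. Fgf9, which signals to neighbouring cells in many developing organs, was not called, at 0.889 and 0.793 FPKM. Fgf10, known for timing the appearance of cortical radial glia, was at 0.0965 and 0.238 FPKM without a test. Fgf5 was at 0.109 and 0.267 FPKM, and Fgf7, a growth factor for epithelia, at 0.481 and 0.261 FPKM, both untested. The Fgf7 row shares its interval with Galk2, which was at 14.6 and 15.9 FPKM. Fgf1, Fgf3 and Fgf21 were listed at 0 in the control and stood at 0.00265, 0.130 and 0.204 FPKM with Ptf1a. Fgf2, a classical mitogen for cultured cortical progenitors, was listed at 0 in both groups. The table also holds Fgf4, Fgf6, Fgf16, Fgf20, Fgf22 and Fgf23, none of them tested, and the highest value among these was 0.217 FPKM.

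The intracellular homologous factors were together the most abundant group of FGF genes, with a summed level of 42.2 FPKM in the control and 31.5 FPKM with Ptf1a. Fgf13, a microtubule-binding protein of migrating cortical neurons (chromosome X, 56315328 to 56387613, mm9), fell from 31.1 to 24.7 FPKM. The authors' deposited table gives it a log2 fold of -0.33 and q = 0.0193. Fgf12 (chromosome 16, 28160184 to 28753288, mm9) fell from 9.01 to 4.22 FPKM (log2 fold -1.09, q = 0.000329 in the authors' deposited table). The decrease of Fgf13 was small, and the median difference of tested genes of like abundance was -0.09. Fgf14, which supports firing of mature neurons, stood at 1.81 and 1.87 FPKM, and Fgf11 at 0.338 and 0.714 FPKM. Neither was called. For Fgf11 the ratio of log2 fold to test statistic, used here as an implied standard error, was 1.26 against a log2 fold of 1.08 in the authors' deposited table.

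All 3 tested receptors rose, but Fgfr2 passed 0.528 FPKM, the highest value of any untested member, only with Ptf1a. Fgfr3 (chromosome 5, 34064373 to 34079717, mm9), a receptor of radial glia and later of astrocytes, rose from 2.39 to 5.37 FPKM. The authors' deposited table gives it a log2 fold of 1.17 and q = 0.000329. Fgfr1 (chromosome 8, 26629244 to 26686186, mm9), the broadly expressed receptor of the embryonic forebrain, rose from 3.42 to 4.78 FPKM (log2 fold 0.48, q = 0.00818 in the authors' deposited table). Fgfr2 (chromosome 7, 137305965 to 137410322, mm9) rose from 0.299 to 0.708 FPKM (log2 fold 1.24, q = 0.00310 in the authors' deposited table).

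The order of the receptor levels differed between the groups. Fgfr1 led in the control with 54.8% of the summed receptor FPKM, followed by Fgfr3 with 38.3%. With Ptf1a the shares were 42.1% for Fgfr1 and 47.3% for Fgfr3, and whether this exchange exceeds the spread between samples was not tested. Fgfr2 was the lowest of the tested receptors in both groups. Fgfrl1, a receptor without a kinase domain, was at 0.128 and 0.452 FPKM without a test. Fgfr4 was listed at 0 in the control and stood at 0.0457 FPKM with Ptf1a. The docking proteins were not called: Frs2 stood at 0.603 and 0.789 FPKM, and its relative Frs3 at 0.993 and 0.834 FPKM.

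**Figure D2:**
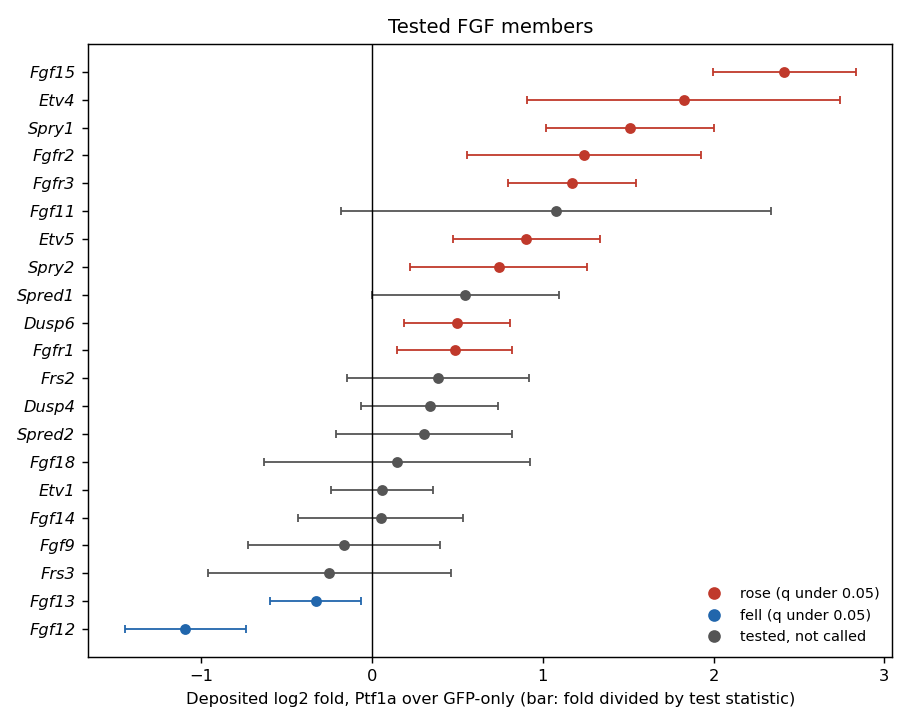
Log2 fold of Ptf1a over GFP-only in the authors' deposited table for the 21 tested members, with bars of 1 implied standard error (log2 fold divided by test statistic). Fgf15 is highest at 2.41 and Fgf12 lowest at -1.09, and the bars of Spry2, Fgfr1, Dusp6 and Fgf13 reach closer to 0 than those of Fgf15, Spry1 and Fgfr3.

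Of the 10 feedback inhibitors 3 rose, none fell, 3 were not called and 4 had no test. The sequence just before the annotated start of each risen inhibitor is shown. These genes are classical readouts of FGF and ERK activity and were picked because they were called risen. Whether their rises share a cause was not tested. Each run is the 250 bases before the start, 5′ to 3′ on the gene's strand, from RefSeq on GRCm38.p6. Capitals mark GGAAG on either strand (CTTCC on the shown strand), the core bound by Ets factors, and CANNTG, the E-box core bound by basic helix-loop-helix factors. The intervals are chr3:37639697-37639946 on the plus strand for Spry1, chr14:105896820-105897069 on the minus strand for Spry2 and chr10:99262981-99263230 on the plus strand for Dusp6.
Spry1: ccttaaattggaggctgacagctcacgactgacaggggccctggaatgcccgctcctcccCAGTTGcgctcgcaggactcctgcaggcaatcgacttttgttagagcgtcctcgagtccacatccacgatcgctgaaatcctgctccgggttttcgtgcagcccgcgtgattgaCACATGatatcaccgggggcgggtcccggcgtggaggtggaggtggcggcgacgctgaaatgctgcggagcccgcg
Spry2: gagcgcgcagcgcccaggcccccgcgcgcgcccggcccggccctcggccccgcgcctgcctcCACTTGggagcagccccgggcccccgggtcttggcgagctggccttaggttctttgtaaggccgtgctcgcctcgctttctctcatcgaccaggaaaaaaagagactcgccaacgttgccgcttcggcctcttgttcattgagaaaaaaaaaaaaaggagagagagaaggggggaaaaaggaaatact
Dusp6: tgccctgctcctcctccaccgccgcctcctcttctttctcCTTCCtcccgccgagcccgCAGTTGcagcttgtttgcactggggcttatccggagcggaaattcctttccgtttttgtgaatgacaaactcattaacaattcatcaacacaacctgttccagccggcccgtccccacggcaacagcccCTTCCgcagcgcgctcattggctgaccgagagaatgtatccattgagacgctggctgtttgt

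Spry1 held CANNTG 190 and 76 bases before its start and no GGAAG. Spry2 held CANNTG 188 bases before its start and no GGAAG in the bases shown. Dusp6 held CANNTG 191 bases before its start and GGAAG on the opposite strand 210 and 62 bases before it. Of the 36 members, 28 had an entry in the promoter table. Those without were Fgf1, Fgf8, Fgf15, Fgf17, Fgfr1, Spry4, Dusp4 and Etv4. In the full window, 250 bases before to 50 after the start, 23 of these 28 (82.1%) held GGAAG and 19 (67.9%) held CANNTG in at least 1 of their promoters, the 28 having 37 promoters between them. Counted the same way, 73.9% of the 27025 genes in the table held GGAAG and 75.0% held CANNTG. Over single promoters, 27 of the 37 held GGAAG and 22 held CANNTG, beside 71.4% and 72.3% of all 32851 promoters. The sequence TTCCCA, the Rbpj part of the site bound by Ptf1a complexes (TGGGAA on the other strand), was in 8 of the 28 members (28.6%) and in 28.3% of all genes. Over single promoters it was in 8 of 37 and in 25.6% of all. GGAAG and CANNTG can share a base, as can TTCCCA with either. These are matches of letters and describe no binding.

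Sprouty proteins block the path from receptor to Ras. Spry1 (chromosome 3, 37538872 to 37543521, mm9) rose from 1.19 to 3.39 FPKM. The authors' deposited table gives it a log2 fold of 1.51 and q = 0.000329. Spry2 (chromosome 14, 106291164 to 106296036, mm9) rose from 1.45 to 2.43 FPKM (log2 fold 0.74, q = 0.0159 in the authors' deposited table). Spry2 was the higher of these Sproutys in the control, and Spry1 was the higher with Ptf1a. Whether this exchange exceeds the spread between samples was not tested. Spry4 was at 0.0191 and 0.382 FPKM, without a test, a log2 fold of 4.32 in the authors' deposited table. That was the largest fold of any member with values above 0 in both groups, and it started from a level close to 0.

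Dusp6, a cytoplasmic phosphatase that acts on ERK, was the most abundant inhibitor in both groups. It lies on chromosome 10 (98725865 to 98730123, mm9) and rose from 6.76 to 9.54 FPKM (log2 fold 0.50, q = 0.00409 in the authors' deposited table). Of its nuclear relatives, Dusp4 was not called, at 2.90 and 3.66 FPKM with q = 0.167 in the authors' deposited table. Dusp5 had no test, at 0.205 and 0.375 FPKM. Spreds hold back Raf activation. Spred1 stood at 0.969 and 1.41 FPKM with q = 0.0808 in the authors' deposited table, and Spred2 at 1.18 and 1.46 FPKM with q = 0.352 in the authors' deposited table. Spred3, at 0.413 and 0.363 FPKM, and Il17rd (Sef), a membrane inhibitor of FGF receptors, at 0.182 and 0.161 FPKM, had no test.

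The Ets effectors Etv1, Etv4 and Etv5 form one subfamily but differed in their calls. Etv4 (chromosome 11, 101631056 to 101646624, mm9) rose from 0.257 to 0.911 FPKM (log2 fold 1.83, q = 0.00483 in the authors' deposited table). Etv5 (chromosome 16, 22381386 to 22439643, mm9), found in radial glia, rose from 1.46 to 2.72 FPKM (log2 fold 0.90, q = 0.000329 in the authors' deposited table). Etv1, which also marks deep-layer projection neurons, was the most abundant of them and stood at 9.23 and 9.60 FPKM, with q = 0.768 in the authors' deposited table. Whether the response of Etv1 differs from that of Etv4 or Etv5 was not tested.

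Weak genes tended upward in this comparison, so each member was also set against tested genes of like abundance. Tested genes were split into 10 bins of equal size by the mean of both group values, bin 1 being the weakest. The median log2(FPKM + 0.1) difference was 0.47 in bin 1, where 30.8% of genes rose, and -0.32 in bin 10, where 3.79% rose. No tested member lay in bin 9 or bin 10, so the median and shares over all tested genes are not matched to the members in abundance. Etv4 and Fgfr2 lay in bin 1, Fgfr2 with a difference of 1.02. Fgf15 lay in bin 7, where the median was -0.06 and 15.7% of genes rose, with a difference of 2.37. Spry2 lay in bin 3 (median 0.16), Spry1 and Etv5 in bin 4 (median 0.13), Fgfr1 and Fgfr3 in bin 5 (median 0.08) and Dusp6 in bin 6, whose median of 0.0037 was near 0. Each of the 11 called members kept its direction after the median of its bin was subtracted. They had been picked for a called change in that direction, so this outcome was largely set in advance.

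**Figure D3:**
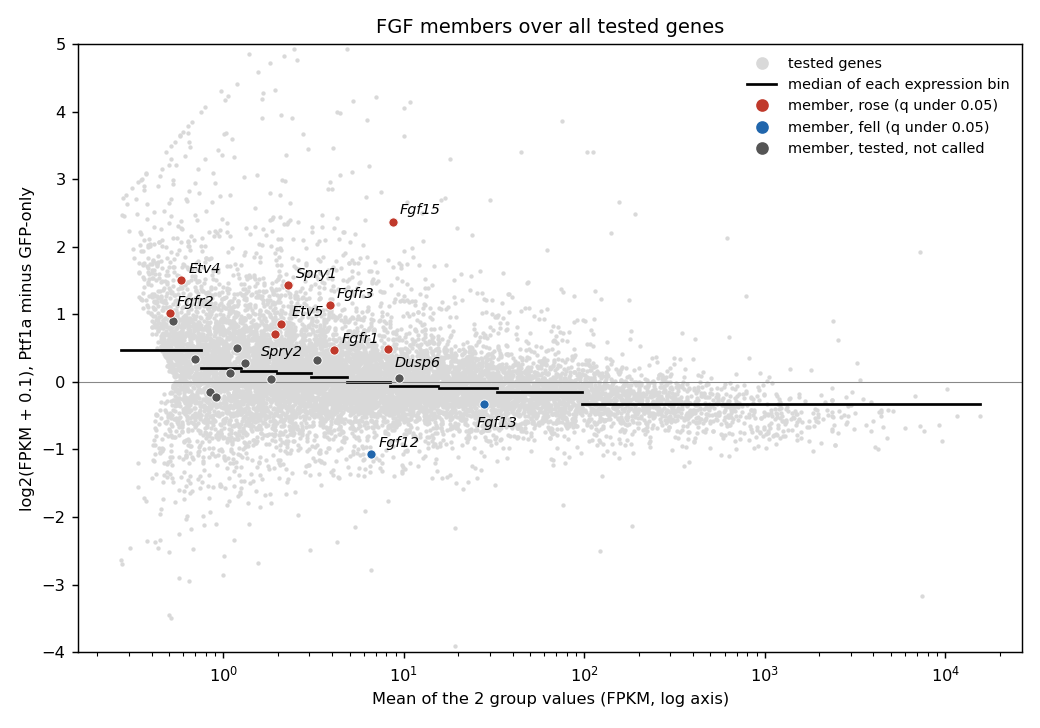
Difference in log2(FPKM + 0.1), Ptf1a minus GFP-only, against the mean of both group values in FPKM (log axis), for all tested genes (grey) and the 21 tested members (coloured), with the median of each of 10 expression bins as a black line; 47 tested genes lie outside the plotted range. The medians run from 0.47 to -0.32. All 9 risen members lie above the median of their bin, which their selection as risen largely set in advance.

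The authors' p for a member was usually smaller than the statistic deposited beside it would give under a normal distribution, in 20 of the 21 tested members and in 97.3% of all tested genes. With calls taken from that normal p and adjusted over all tested genes, 3.29% of genes rose and 2.79% fell. Fgf15, Fgfr3 and Spry1 were then the risen members and Fgf12 the fallen one. Fgfr1, Fgfr2, Spry2, Dusp6, Etv4, Etv5 and Fgf13 were no longer called. Where a change of at least 2-fold was also asked of the authors' calls, 5 members rose and Fgf12 alone fell, beside 6.67% and 1.87% of tested genes. At least 1.5-fold left 7 risen members and Fgf12, beside 13.0% and 7.70%, and a q under 0.01 left 8 risen members and Fgf12, beside 12.9% in each direction. At 5 FPKM or more in either group 3 members, Fgf15, Fgfr3 and Dusp6, rose and 2 fell, beside 13.4% and 29.5% of such genes. Fgf15 and Fgfr3 passed this level only with Ptf1a and Fgf12 only in the control, so the filter is not independent of their change.

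Other genes of the pathway were taken from lists that the choice of members did not use. Of 165 genes in the table, 117 were tested, 40 rose and 21 fell, beside the 18.7% and 19.1% of all tested genes. Among co-receptors and FGF-binding proteins 1 of 6 tested genes rose and 1 fell. Flrt1, a membrane protein that binds FGF receptors, went from 1.95 to 5.27 FPKM, and the adhesion molecule Ncam1 from 117 to 93.3 FPKM. Heparan sulphate proteoglycans and their enzymes had 7 risen and 4 fallen of 22 tested. The sulphotransferase genes Ndst3 (1.28 to 7.29 FPKM) and Hs2st1 (2.18 to 3.28 FPKM) and the syndecan Sdc2 (1.15 to 2.70 FPKM) rose, while the sulphotransferase gene Hs6st2 fell from 8.28 to 5.38 FPKM.

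Between receptor and ERK the calls went both ways. Of 24 tested adaptors and Ras regulators 8 rose and 4 fell. The Ras-related GTPase Rras went from 0.239 to 1.26 FPKM and Rasa3, which turns Ras off, from 1.02 to 2.33 FPKM. Rras2 fell from 7.81 to 3.62 FPKM and the Ras exchange factor Rasgrf1 from 1.69 to 0.404 FPKM. In the Raf, MEK and ERK core 12 of 16 tested genes were not called, 2 rose and 2 fell. Braf rose from 0.531 to 1.13 FPKM, and Pea15a, which keeps ERK in the cytoplasm, from 300.1 to 381 FPKM. Mapk3, which encodes ERK1, fell from 62.3 to 40.8 FPKM, and the Raf inhibitor Pebp1 from 2104 to 1409 FPKM.

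Calls among other genes linked to ERK went both ways. In a list of early response genes with Srf and the Elk factors, 7 of 17 tested genes rose and 5 fell. Among all tested genes 18.7% rose and 19.1% fell. Egr1 rose from 2.49 to 8.70 FPKM, Arc from 0.510 to 2.82 FPKM, Srf from 1.26 to 2.24 FPKM and Elk3 from 0.365 to 1.14 FPKM. Egr2, Ccnd1 and Phlda1 rose as well. Jun fell from 20.7 to 14.6 FPKM, Junb from 3.72 to 2.12 FPKM, Jund from 12.3 to 9.33 FPKM, Myc from 10.2 to 7.56 FPKM and Elk1 from 4.96 to 3.76 FPKM. Fos, the most abundant early gene of the list, was at 71.9 and 71.6 FPKM and was not called. Among phosphatases and inhibitors outside the member set 2 rose and 2 fell of 9 tested. Dusp10 went from 0.906 to 1.48 FPKM, whereas Dusp1 fell from 33.6 to 20.0 FPKM and Dusp14 from 34.5 to 23.3 FPKM. Other Ets factors had 2 risen and none fallen of 6 tested, with Elf2 at 3.21 and 4.47 FPKM. With the normal p of the deposited statistic Egr1 and Arc kept their calls, and none of the other genes in these lists did.

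Other receptor tyrosine kinases, which feed the same cascade, had 6 risen and none fallen of 8 tested, and 12 more had no test. Among all tested genes 18.7% rose and 19.1% fell, and weak genes, such as Egfr, Pdgfrb and Kit in the control, tended upward. With the normal p of the deposited statistic Pdgfrb, Kit and Ddr1 kept their calls, and Egfr, Igf1r and Ntrk3 did not. Egfr rose from 0.230 to 1.43 FPKM, Pdgfrb from 0.0286 to 1.20 FPKM, Kit from 0.383 to 1.34 FPKM and Ddr1 from 3.73 to 9.36 FPKM. Pdgfrb is also a pericyte marker, and of the other pericyte genes Rgs5 stood at 0.623 and 1.55 FPKM and Kcnj8 at 1.17 and 0.639 FPKM. Cortical patterning genes known to respond to Fgf8 had 5 risen and 3 fallen of 9. Pax6 (3.73 to 21.5 FPKM), also a radial glia marker, Emx2 (0.511 to 3.13 FPKM) and Efna5 (0.521 to 3.19 FPKM) rose, and Nr2f2 fell from 18.6 to 10.5 FPKM.

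**Figure D4:**
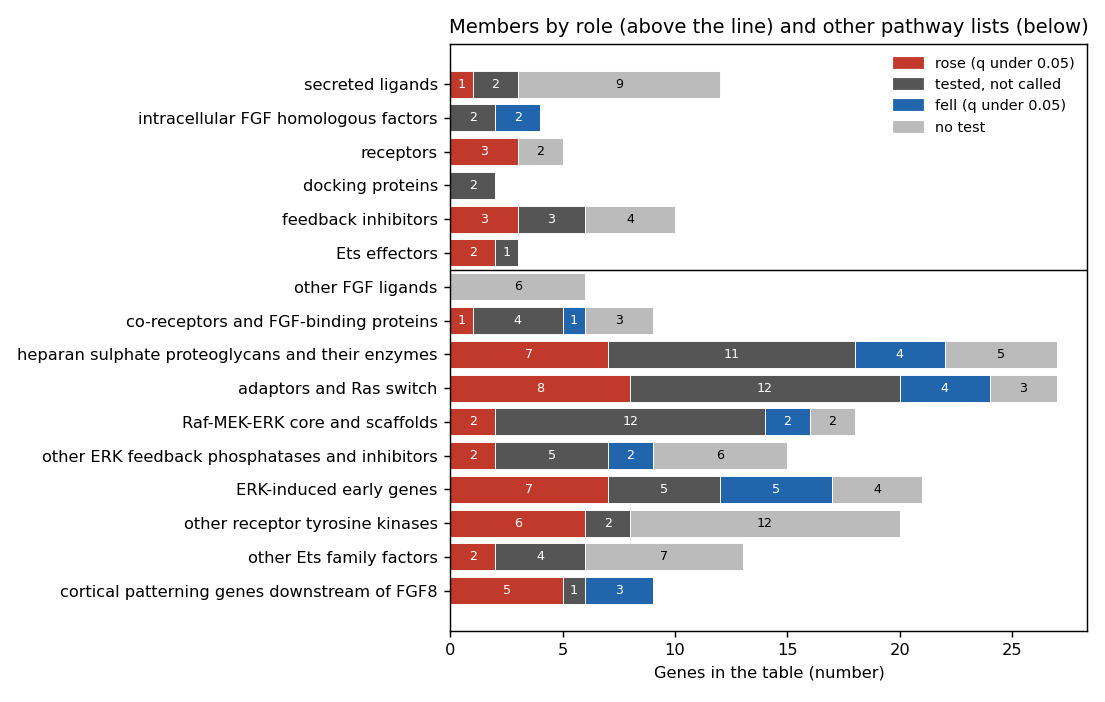
Number of genes that rose, were tested and not called, fell or had no test, for the member roles (above the line) and the other pathway lists (below it). Of 3 tested receptors 3 rose and none fell, and of 6 tested feedback inhibitors 3 rose and none fell. In the list labelled ERK-induced early genes, which also holds Srf and the Elk factors, 7 rose and 5 fell of 17 tested. Among all tested genes, which are not matched to these lists in abundance, 18.7% rose and 19.1% fell.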

How the data were processed

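RNA of GFP-positive cortical cells from 5 samples was amplified from 2.1 to 7.8 ng and read in pairs of 50 bases, per the labels' protocols. The authors' tools were Cuffdiff, Cufflinks 2.1.1, TopHat2 2.0.8 and CASAVA 1.8.2, with the build mm9, per the submitters' processing notes; the Cuffdiff version, annotation and parameters are not given in the sources used here. The deposited table holds 1 FPKM value per gene and group, a log2 fold, the p-value, the q-value and a score, the test statistic, per the file headers. The heading PIG was read as the Ptf1a group because the other heading is GFP. Depth per sample is unknown. With Python 3.11.15, pandas 2.3.3 and scipy 1.17.1, members were matched by symbol, called at q under 0.05, and given a difference in log2(FPKM + 0.1), a pseudocount that understates the change of weak genes. Alternatives covered thresholds, pseudocounts, centring and the source of p. The call and adjustment steps were tested on simulated data with normal noise of a fixed size, which does not test the authors' deposited p or q. Coordinates are printed 1-based, with starts taken as 0-based in the table: so read, 4968 of 20792 loci matched a GENCODE M21 transcript in length, and 629 did otherwise. The members and lists were chosen with earlier results of these data known. All 36 members are named, with up to 4 called genes of at least 1 FPKM per pathway list. Up to 2 of the most abundant markers are named per cell class. Anpep, Folr1, Foxc1, Foxd1, Galk2, Jun, Junb, Jund, Myc, Elk1, Fos, Egr2, Phlda1 and the neighbours of Fgf15 were chosen after their values were seen. Anos1, Hba-a1 and Hbb-b1 matched no row, and Map2 was matched as Mtap2.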

Additional observations from a re-analysis of the deposited data

How the results depend on the processing

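The 9 risen members were 8 at q under 0.01 and 7 with at least 1.5-fold, and the other thresholds tried, beside those given next, kept the count within 1.5 times. They were 3 at 5 FPKM or more in either group, 5 with at least 2-fold and 3 with the normal p of the deposited statistic. Fgf15 and Fgfr3 reached 5 FPKM only with Ptf1a. The 2 fallen members were 1 at q under 0.01, 1 with at least 1.5-fold or 2-fold, and 1 with the normal p, Fgf12 in each case. Spry2 and Fgf13 lost their calls at q under 0.01. The members' median difference of 0.50 was 0.52 with a pseudocount of 0.01, 0.18 with a pseudocount of 1, 0.47 at 1 FPKM or more and over tested members only, 0.27 at 5 FPKM or more, and 0.53 after centring on the tested genes at 1 FPKM or more. Centring on the expression bin turned the direction of 3 uncalled members, Fgf18 (-0.065), Fgf14 (-0.11) and Frs2 (-0.13). The 40 risen and 21 fallen pathway genes were 10 and 3 with the normal p, an alternative chosen for these lists after seeing the data. In a window from 100 bases before to 50 after the start 3 members held TTCCCA in place of 8, or 10.7% in place of 28.6%, while the share of all genes went from 28.3% to 15.1%. The cause of these shifts was not tested, beyond the fewer genes that each stricter rule can pass. No paired analysis was possible because the table holds 1 merged value per group, and for the same reason no sample could be left out. Depth per sample is unknown, so members near 0 FPKM cannot be told from absent ones.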

Other observations

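Fgf15, Fgf3 and Fgf4 lie side by side on chromosome 7, and the rows within 300000 bases of Fgf15 were read for context, a choice made after the value of Fgf15 was seen. Fgf3 and Fgf4 were listed at 0 in the control and stood at 0.130 and 0.0257 FPKM with Ptf1a, neither with a test. On the other side Oraov1 was not called, at 9.40 and 9.33 FPKM. Ccnd1, a cyclin that ERK induces, rose from 4.68 to 6.79 FPKM (log2 fold 0.54, q = 0.00331 in the authors' deposited table). Ano1 was at 0.230 and 0.386 FPKM without a test. The log2 fold of 2.41 of Fgf15 in the authors' deposited table was the largest among the rows of this interval with values above 0 in both groups.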
